A study of Homo sapiens with 13 samples.

Results

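The 10 genes followed here encode factors of bone homing, bone resorption and blocked bone formation in metastatic disease: PTHLH, TNFSF11, TNFRSF11A, TNFRSF11B, DKK1, SPP1, IBSP, RUNX2, CXCR4 and CSF1. Every probe set that the platform annotation pairs with one of them was taken, and none of these probe sets names a further gene. In this way 9 of the 10 genes were measured, by 18 of 22215 probe sets; the series as a whole measured 11963 genes. PTHLH, which encodes the parathyroid hormone-related protein, was not analysed here.

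The cells derive from human non-small cell lung carcinoma, and their RNA was read on 13 Affymetrix arrays, each loaded with RNA pooled from 3 groups of cells. M1, M4 and M5, the lines that spread to bone, filled 3 arrays each, control cells carrying a luciferase reporter filled 2, and control cells without that reporter filled 2. By the labels the lines are subpopulations recovered from bone of mice whose hearts had been injected with control cells. The labels name neither the parent cell line nor whether M1, M4 and M5 carry luciferase, and each line is a single derived population, so p-values measure the spread between arrays and not between derivations.

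In osteolytic metastasis, tumour-derived signals act on the osteoblasts and osteoclasts of the host. RANKL (TNFSF11) binds its receptor RANK (TNFRSF11A) on osteoclast precursors and, together with M-CSF (CSF1), drives them to become osteoclasts, while osteoprotegerin (TNFRSF11B) is a soluble decoy that captures RANKL. DKK1 blocks the Wnt co-receptors LRP5 and LRP6 and thereby restrains osteoblasts, osteopontin (SPP1) and bone sialoprotein (IBSP) are integrin-binding matrix proteins, RUNX2 is the transcription factor that specifies osteoblasts, and CXCR4 is the receptor through which cells follow CXCL12 in the marrow.

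Most of these genes gave low signals, and none was called in more than 1 line against control. Against the mean of both kinds of control, 1 of 18 probe sets passed limma's test at a Benjamini-Hochberg adjusted p under 0.05 in M5, where 1.4% of all probe sets did: DKK1, which was 1.79-fold lower. In M4 no probe set of these genes was called (background 0.009%), nor in M1 (background 0.0135%), nor in the mean of the lines (background 0.063%). At an unadjusted p under 0.05 the counts were 5 of 18 in M5, 3 in M4, 0 in M1 and 2 in the mean of the lines, where 16.4%, 6.27%, 2.79% and 7.47% of all probe sets passed. Between lines, 1 of 18 probe sets was called, TNFRSF11B, which was 1.97-fold lower in M5 than in M4 (background 1.25%). None was called between M4 and M1 (background 0.0135%) or between M5 and M1 (background 0.617%). At an unadjusted p under 0.05, 2 of 18 passed for M4 minus M1 and 4 each for M5 minus M1 and M5 minus M4, where 2.8%, 13.4% and 13.3% of all probe sets passed. The luciferase control and the control without luciferase gave 0 calls (background 0%) and 0 at an unadjusted p under 0.05 (background 1.26%).

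The arrays did not group by cell line alone. The 62 Affymetrix control probe sets divided them into 4 array clusters: one with both first control arrays and M1 replicate 2, one with both second control arrays and replicate 1 of each line, one with M4 replicates 2 and 3 and M1 replicate 3, and one with M5 replicates 2 and 3. The labels do not say what these clusters are. With the cluster added to the fit as a block, 0 of 18 probe sets were called in any of the 8 comparisons, and the background was then 1.54% in M5, 0.108% in M4, 0.239% in M1, 0.428% in the mean of the lines and 1.59% for M5 minus M4. It was 1.37% for M5 minus M1, 0.0855% for M4 minus M1 and 0.018% between the controls. The comparisons of M5 in this fit rest on M5 replicate 1. Without M5 replicate 1, and with no block, 6 of 18 probe sets were called in M5 minus control, 7 in M5 minus M1 and 5 in M5 minus M4, but so were 22.3%, 16.9% and 16.4% of all probe sets. M5 replicates 2 and 3 also had the narrowest signal distribution, with SDs over probe sets of 2.14 and 2.17 on the log2 scale, against 2.22 to 2.27 on the other arrays. Of the 15 member probe sets whose mean lay below the median of all probe sets, 13 were higher on the mean of these arrays than on M5 replicate 1, and of all 11107 such probe sets 74% were. Of the 3 member probe sets above the median, 1 was higher. Among the brightest 2% of all probe sets 46.1% were higher, with a median difference of -0.02. DKK1 is not among these, at the 84.3rd, 84.5th and 83.6th percentile of M5 replicates 1, 2 and 3. No such share is given here for its brightness. The upper quartiles of M5 replicates 2 and 3 were 7.47 and 7.55, against 7.59 to 7.74 on the other arrays. On M5 replicate 1 the upper quartile was 7.72. Every array of M5 is therefore given for the brightest probe set of each gene, and the part of the array clusters in it was not tested beyond the values shown.

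Signals are log2 values normalised by the authors with RMA, and position within an array is used here only to say how dim or bright a probe set was. SPP1 lay between the 98.6th and the 99.2nd percentile of each array and DKK1 between the 83.6th and the 91.9th. The brightest CSF1 probe set followed, at the 59.5th to the 66.6th percentile. The other 6 measured genes were low: all probe sets of 5 genes, TNFSF11, TNFRSF11A, IBSP, RUNX2 and CXCR4, were below the median on all 13 arrays, as were 14 of the 18 probe sets in all. Of these, 4 probe sets were below the lower quartile on all arrays, 1 each of TNFSF11 and TNFRSF11A and 2 of CXCR4. The processed values hold no detection calls, so a low signal is not reported as absence, and changes of dim probe sets are understated on this scale.

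**Figure D1:**
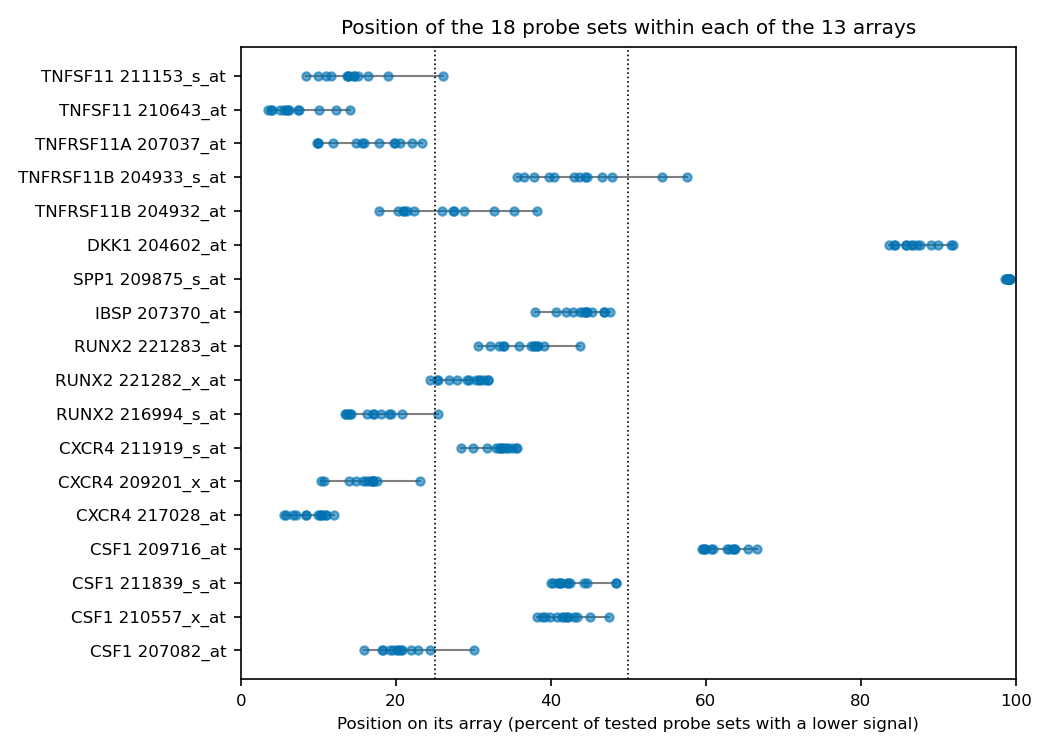
Position of every member probe set among all probe sets of the same array (x axis, percentile of the array's 22215 probe sets), with 1 point per array; dotted lines mark the lower quartile and the median. SPP1 and DKK1 stay at the bright end in all arrays, while the probe sets of TNFSF11, TNFRSF11A, IBSP, RUNX2 and CXCR4 stay below the median.

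**Figure D2:**
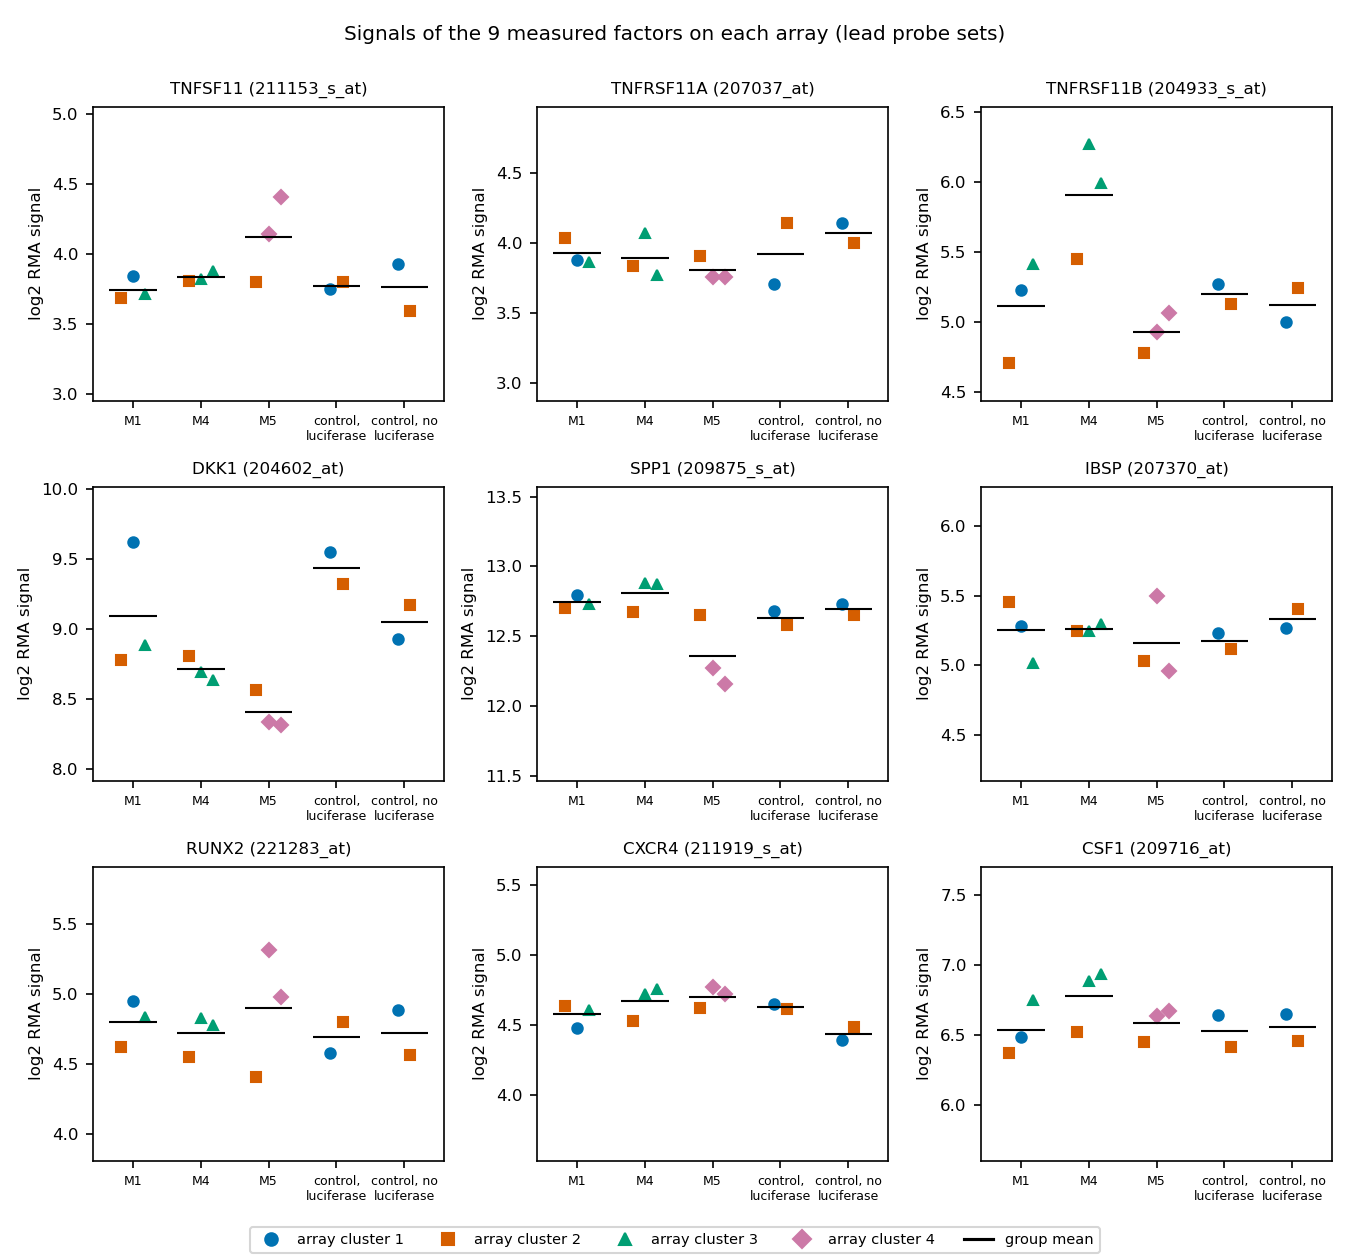
Deposited log2 signal of the brightest probe set of each measured gene on every array (y axis), with M1, M4 and M5 to the left of the luciferase control and the control without luciferase; points are arrays, their shape and colour give the array cluster, and bars are group means. DKK1 is lowest in M5, TNFRSF11B is highest in M4, and SPP1 is lower on M5 replicates 2 and 3 than on M5 replicate 1.

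Among the ligands, RANKL stayed near the floor. TNFSF11 (211153_s_at) had log2 signals of 3.68, 3.84 and 3.71 in M1, 3.81, 3.82 and 3.88 in M4, and 3.80, 4.15 and 4.41 in M5, against 3.75 and 3.80 in the luciferase control and 3.93 and 3.60 in the control without luciferase. M5 replicates 2 and 3 were above every other array, and M5 replicate 1 lay within the range of the controls. The M5 difference was 0.35 ± 0.13 (log2, limma standard error; adjusted p = 0.229), and it was 0.03 with M5 replicate 1 as the only M5 array. The second TNFSF11 probe set (210643_at) differed by 0.14 (95% confidence interval -0.12 to 0.39) in M5.

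CSF1, whose product keeps osteoclast precursors alive, was the brighter ligand by rank. Its brightest probe set (209716_at) gave 6.37, 6.49 and 6.75 in M1, 6.52, 6.88 and 6.93 in M4, and 6.44, 6.64 and 6.67 in M5, against 6.64 and 6.41 in the luciferase control and 6.65 and 6.46 in the control without luciferase. M4 replicates 2 and 3 were the highest arrays, and all groups overlapped with the controls. The differences from control were 0.00 for M1, 0.24 for M4 and 0.04 for M5, and the interval for M5 was -0.24 to 0.33; none was called. The other 3 CSF1 probe sets gave M5 differences of 0.20, 0.33 and 0.31, and none of these was called (adjusted p = 0.569, 0.216 and 0.277). Within the cluster that holds replicate 1 of each line and the second control arrays, they were -0.05, 0.07 and 0.05.

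The receptors of RANKL and CXCL12 were dim on all arrays. TNFRSF11A (207037_at), the RANKL receptor, gave 4.03, 3.88 and 3.86 in M1, 3.84, 4.07 and 3.77 in M4, and 3.91, 3.76 and 3.76 in M5, against 3.71 and 4.14 in the luciferase control and 4.14 and 4.00 in the control without luciferase. The controls alone spanned the range of all lines. The difference in M5 was -0.19 ± 0.12 (log2, adjusted p = 0.452) and was not called.

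CXCR4 (211919_s_at) gave 4.64, 4.48 and 4.61 in M1, 4.53, 4.73 and 4.76 in M4, and 4.62, 4.77 and 4.72 in M5, against 4.65 and 4.62 in the luciferase control and 4.39 and 4.49 in the control without luciferase. Some arrays of M4 and M5 lay above all controls, others did not. The differences were 0.04 for line M1, 0.13 for M4 and 0.17 for M5, and the last interval of -0.03 to 0.37 holds no 2-fold change in either direction. The other CXCR4 probe sets (209201_x_at and 217028_at) differed by 0.11 and 0.00 in M5. CXCL12, the ligand of CXCR4, averaged 5.29 in M5 and 4.50 in control, a difference of 0.80 ± 0.27 that was not called (adjusted p = 0.178).

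TNFRSF11B, the decoy receptor, had its highest level in M4. The brighter probe set (204933_s_at) gave 4.78, 4.93 and 5.06 in M5, 5.45, 6.27 and 5.99 in M4, and 4.70, 5.23 and 5.41 in M1, against 5.27 and 5.12 in the luciferase control and 5.0 and 5.24 in the control without luciferase. All M4 arrays were above all M5, M1 and control arrays; M4 replicate 1 exceeded the highest of these, M1 replicate 3, by less than the spread within M4. Of all probe sets, 7.63% had all M5 arrays below all M4 arrays and 4.3% had all M4 arrays above all M1 arrays. The second probe set (204932_at) also had all M4 arrays above all others, with 4.28, 4.23 and 4.24 in M5, 4.49, 4.87 and 4.74 in M4 and 4.10, 4.10 and 4.33 in M1, against 4.09 and 4.25 in the luciferase control and 3.99 and 4.35 in the control without luciferase.

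Group means of the brighter probe set were 4.92 ± 0.14 in M5, 5.90 ± 0.42 in M4 and 5.11 ± 0.37 in M1 (SD, n = 3 each), against 5.16 ± 0.12 in control (SD, n = 4). The step from M4 to the next group was larger than the SD of either, and the steps among the other 4 groups were not. TNFRSF11B fell in M5 relative to M4 by 0.98 ± 0.21 on the log2 scale (95% confidence interval -1.44 to -0.52, limma adjusted p = 0.0457). The second probe set gave -0.45 ± 0.13 for the same comparison and was not called (adjusted p = 0.133). With the array cluster as a block the brighter probe set gave -0.72 ± 0.21 (adjusted p = 0.126). Within the cluster that holds replicate 1 of each line, M5 minus M4 was -0.67 for the brighter probe set and -0.22 for the second.

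Relative to control, the M4 level of TNFRSF11B was 0.74 ± 0.20 higher on the log2 scale for the brighter probe set and 0.53 ± 0.12 for the second, and neither passed the test (adjusted p = 0.399 and 0.283). Both probe sets had all M4 arrays above all controls, as did 5.34% of all probe sets. Within the cluster that holds replicate 1 of each line and the second control arrays, M4 exceeded control by 0.26 and 0.19. Relative to M1, M4 was 0.75 higher for the brighter probe set in that cluster and 0.72 higher in the cluster of M4 replicates 2 and 3 with M1 replicate 3, and the fit over all arrays gave 0.79 ± 0.21 (adjusted p = 1.00).

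DKK1, the Wnt antagonist, was the only one of these genes called against control. Its promoter is shown because DKK1 is itself a known target of Wnt signalling, which acts through TCF/LEF factors. The sequence runs from 250 bases before to 50 after the start site, on the plus strand of chr10:52314031-52314330 (RefSeq, GRCh38.p14), 5′ to 3′. Capitals mark matches to the TCF/LEF letters CTTTGA on either strand, which start at -149 and -95, and to TATAAA, which starts at -30.
DKK1 promoter: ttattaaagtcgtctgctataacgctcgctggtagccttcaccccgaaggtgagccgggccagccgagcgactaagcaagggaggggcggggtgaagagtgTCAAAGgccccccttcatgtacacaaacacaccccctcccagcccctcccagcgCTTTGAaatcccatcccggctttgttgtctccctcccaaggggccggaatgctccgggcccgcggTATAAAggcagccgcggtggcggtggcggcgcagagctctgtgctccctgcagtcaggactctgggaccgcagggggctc
Of 35114 promoters of this length, 12.9% hold the TCF/LEF letters and 11.5% the TATA letters on either strand. A match describes letters only.

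DKK1 (204602_at) had log2 signals of 8.57, 8.34 and 8.32 in M5, 8.81, 8.70 and 8.64 in M4, and 8.78, 9.62 and 8.89 in M1, against 9.55 and 9.32 in the luciferase control and 8.93 and 9.18 in the control without luciferase. All M5 and M4 arrays were below all control arrays, as were 5.82% and 5.07% of all probe sets in M5 and M4. Of the 9 metastatic arrays, 8 were below the lowest control; the exception was M1 replicate 2, which had the highest DKK1 signal of all arrays. Group means were 8.41 ± 0.14 in M5, 8.71 ± 0.08 in M4 and 9.10 ± 0.46 in M1 (SD, n = 3 each), against 9.25 ± 0.26 in control (SD, n = 4). The steps from M5 up to M4 and from M4 up to the control without luciferase exceeded the SDs of the neighbours, while M1, between the 2 kinds of control, differed from neither beyond its spread.

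DKK1 fell in M5 by 0.84 ± 0.18 on the log2 scale (95% confidence interval -1.22 to -0.46, limma adjusted p = 0.0404). In M4 the difference was -0.53 ± 0.18 (adjusted p = 0.567), in M1 it was -0.15 ± 0.18 with an interval of -0.53 to 0.23, and for the mean of the lines it was -0.51 ± 0.14 (adjusted p = 0.395). Without M1 replicate 2, the mean of the lines differed by -0.59 and was called (adjusted p = 0.0396, background 0.104%). M5 minus M4 was -0.31 (95% confidence interval -0.72 to 0.10) and M5 minus M1 was -0.69 (-1.10 to -0.28), with intervals not adjusted for the number of tests. All M5 arrays were below all M4 arrays, as were 7.63% of all probe sets. Neither difference was called (adjusted p = 0.503 and 0.138), so the adjusted test did not show the lines to differ from each other in DKK1.

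The DKK1 call in M5 depended on which arrays were used, while its direction did not. With the array cluster as a block it was -0.54 ± 0.22 (adjusted p = 0.290), and with M5 replicate 1 as the only M5 array it was -0.68 (adjusted p = 0.411). Within the cluster that holds replicate 1 of every line, DKK1 was lower than the mean of both controls by 0.68 in M5, 0.44 in M4 and 0.47 in M1. In the cluster of the first control arrays, M1 replicate 2 was 0.38 higher than them. Since every array held RNA of a whole culture, fewer DKK1-expressing cells and less DKK1 RNA per cell cannot be told apart.

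DKK1 was the only one of these genes whose group means spanned at least 1 log2 unit (1.03). Among 193 other genes with that span, those whose signals ran most like DKK1 over the 13 arrays were GBP1 (Pearson r = 0.918), a guanylate-binding protein, TASOR (r = 0.828), a subunit of a gene-silencing complex, and GNB5 (r = 0.824), a G protein beta subunit. GBP1 averaged 5.35 in M5, 5.88 in M4 and 6.05 in M1, against 6.49 in the luciferase control and 6.32 in the control without luciferase. These correlations describe arrays that share lines and clusters.

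**Figure D3:**
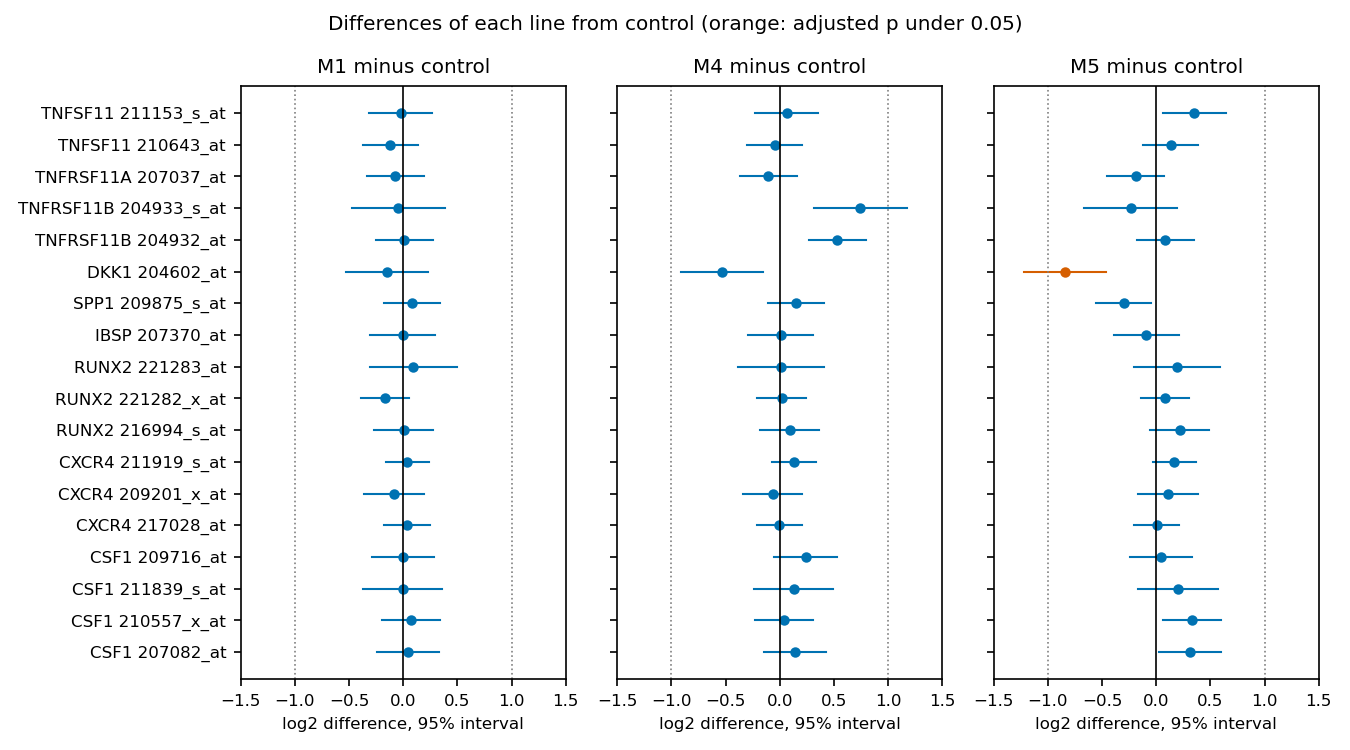
Log2 difference from control of each of the 18 probe sets in M1, M4 and M5 (x axis, limma estimate with its 95% confidence interval); dotted lines mark a 2-fold change. DKK1 in M5, in orange, passed the adjusted test, and most other intervals cross 0.

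The genes of the 2 matrix proteins lay far apart on the arrays. SPP1 was near the top, whereas IBSP was at the 37.9th to the 47.7th percentile, somewhat below the median. Their promoters are shown because both genes are known targets of RUNX2 in osteoblasts and lie near each other on chromosome 4. Both run from 250 bases before to 50 after the start site on the plus strand of GRCh38.p14 (RefSeq), SPP1 at chr4:87975464-87975763 and IBSP at chr4:87799304-87799603, 5′ to 3′. Capitals mark the RUNX letters TGTGGT read on the minus strand in SPP1, starting at -142, and the letters TATAAA read on the minus strand in IBSP, starting at -30.
SPP1 promoter: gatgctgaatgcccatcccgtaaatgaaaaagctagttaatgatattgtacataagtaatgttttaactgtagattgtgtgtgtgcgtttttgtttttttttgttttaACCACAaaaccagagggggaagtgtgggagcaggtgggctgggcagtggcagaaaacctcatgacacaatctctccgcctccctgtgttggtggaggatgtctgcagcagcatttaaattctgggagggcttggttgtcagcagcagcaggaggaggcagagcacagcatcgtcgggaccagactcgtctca
IBSP promoter: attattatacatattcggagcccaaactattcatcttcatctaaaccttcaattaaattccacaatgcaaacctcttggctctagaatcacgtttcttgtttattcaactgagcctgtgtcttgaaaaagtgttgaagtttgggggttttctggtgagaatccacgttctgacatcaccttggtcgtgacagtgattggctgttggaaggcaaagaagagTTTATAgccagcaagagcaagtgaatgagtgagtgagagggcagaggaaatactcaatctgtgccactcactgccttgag
The RUNX letters are in 13.1% of the 35114 promoters, and no match in the IBSP window says only that these letters are not in these 300 bases.

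SPP1 (209875_s_at) gave 12.65, 12.27 and 12.16 in M5, 12.67, 12.88 and 12.88 in M4, and 12.71, 12.80 and 12.73 in M1, against 12.68 and 12.58 in the luciferase control and 12.73 and 12.65 in the control without luciferase. M5 replicates 2 and 3 were the lowest arrays, and M5 replicate 1 lay among the controls. SPP1 differed by -0.30 ± 0.12 in M5 (log2, adjusted p = 0.239), by 0.15 in M4 and by 0.08 in M1, and none was called. M5 minus M4 was -0.45 with no overlap of the arrays, as 7.63% of all probe sets had in that direction, and was not called (adjusted p = 0.126). Within the cluster that holds replicate 1 of each line and the second control arrays, the M5 difference from control was 0.03. M5 minus M4 was -0.02 there.

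IBSP (207370_at) was low and even. It gave 5.03, 5.49 and 4.96 in M5, 5.25, 5.25 and 5.29 in M4, and 5.45, 5.28 and 5.02 in M1, against 5.23 and 5.12 in the luciferase control and 5.27 and 5.40 in the control without luciferase. The highest and the lowest array were both M5 arrays. The M5 difference from control was -0.09 (95% confidence interval -0.39 to 0.21), and in M4 and M1 the differences were 0.01 and 0.00.

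RUNX2 (221283_at) gave 4.41, 5.31 and 4.98 in M5, 4.55, 4.83 and 4.78 in M4, and 4.62, 4.95 and 4.83 in M1, against 4.58 and 4.80 in the luciferase control and 4.88 and 4.56 in the control without luciferase. The 3 M5 arrays spanned more than all other arrays together. Differences from control were 0.19 (95% confidence interval -0.21 to 0.59) in M5, 0.01 in M4 and 0.09 in M1, and the other RUNX2 probe sets (221282_x_at and 216994_s_at) differed by 0.08 and 0.22 in M5. None was called.

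On the RMA log2 scale, which compresses dim probe sets, the 95% intervals of the differences were mostly narrow. In M1 the intervals of all 18 probe sets lay within a 2-fold change in either direction, as they did for the mean of the lines. In M4 and in M5 this held for 17 of 18, the exceptions being TNFRSF11B in M4, whose interval reached 1.17, and DKK1 in M5. The median difference of the 9 genes by their brightest probe set was -0.09 in M5, 0.07 in M4 and 0.00 in M1, where the median of all genes was 0.03, 0.00 and -0.01. Over all 18 probe sets the median was 0.10 in M5, 0.05 in M4 and -0.004 in M1, so its sign in M5 depended on the probe sets taken. The medians of all probe sets were 0.03, -0.01 and -0.01.

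The partners of these genes were described from 7 lists; over all genes, 1.87% were called in M5 minus control, 1.69% in M5 minus M4 and 0.802% in M5 minus M1. None of the 10 measured RANK and M-CSF signalling partners, the 12 genes around the PTHrP receptor, the 12 secreted Wnt antagonists and DKK receptors, the 10 further bone matrix proteins and receptors of such proteins, the 10 RUNX family and osteoblast genes or the 10 genes of the CXCL12 axis was called in M5 minus control without the block. Of 27 other osteolytic cytokines, proteases and bone-acting factors, 1 fell and none rose without the block. It was CXCL8 (interleukin 8), which averaged 12.15 in M5 and 12.76 in control, a difference of -0.61 ± 0.12 (limma adjusted p = 0.0347). CXCL8 was also lower in M5 than in M1, by 0.73 (adjusted p = 0.0327), and than in M4, by 0.67 (adjusted p = 0.0326); with the cluster as a block all 3 calls were lost, at -0.55 against control (adjusted p = 0.10), -0.57 against M1 (adjusted p = 0.101) and -0.40 against M4 (adjusted p = 0.294). Like SPP1, CXCL8 lay above the 98th percentile of every array.

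ITGB5, the beta subunit of an integrin that binds osteopontin, fell in M5 relative to M4 by 1.08 ± 0.16 (8.31 in M5 and 9.39 in M4, limma adjusted p = 0.00642), and did so with the block too (-0.67, adjusted p = 0.0385), where 1.72% of all genes were called. Its difference from control was -0.37 in M5 and was not called (adjusted p = 0.252). With the block, 1.76% of all genes were called in M5 minus control, and the M5 side of that fit rests on M5 replicate 1. Of the 27 other osteolytic and bone-acting factors, 1 then rose and 2 fell. JAG1, a Notch ligand, rose by 2.03 (adjusted p = 5.51e-05), while the matricellular proteins CCN1 and CCN2 gave -1.44 and -1.27 (adjusted p = 0.000345 and 0.00577). Without the block these differences were 0.67, -0.55 and -0.65, and none was called. In the other lists TGFBR2, a TGF-beta receptor, fell at -1.07 (adjusted p = 0.0167) and MSX2, an osteoblast homeobox gene, rose by 0.75 (adjusted p = 0.0354), against -0.59 and -0.12 without the block. For the mean of the lines with the block (background 0.493%), JAG1 rose and CCN1, CCN2 and the cytokine gene IL6 fell among the 27. TGFBR2 fell among the 12 genes around the PTHrP receptor. These differences were 0.89, -0.79, -0.70, -1.71 and -0.72, in that order. Without the block they were 0.46, -0.42, -0.49, -0.22 and -0.40, and none was called. IL6 in M4 minus control was 0.39 ± 0.82 without the block. In M5 minus M1 (background 1.5%) and in M5 minus M4, JAG1 and CCN1 were called with the block in the same directions, and CCN2 in M5 minus M1. None of these was called without the block. Medians of the lists in M5 minus control lay between -0.12 and 0.12, against 0.03 over all genes.

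**Figure D4:**
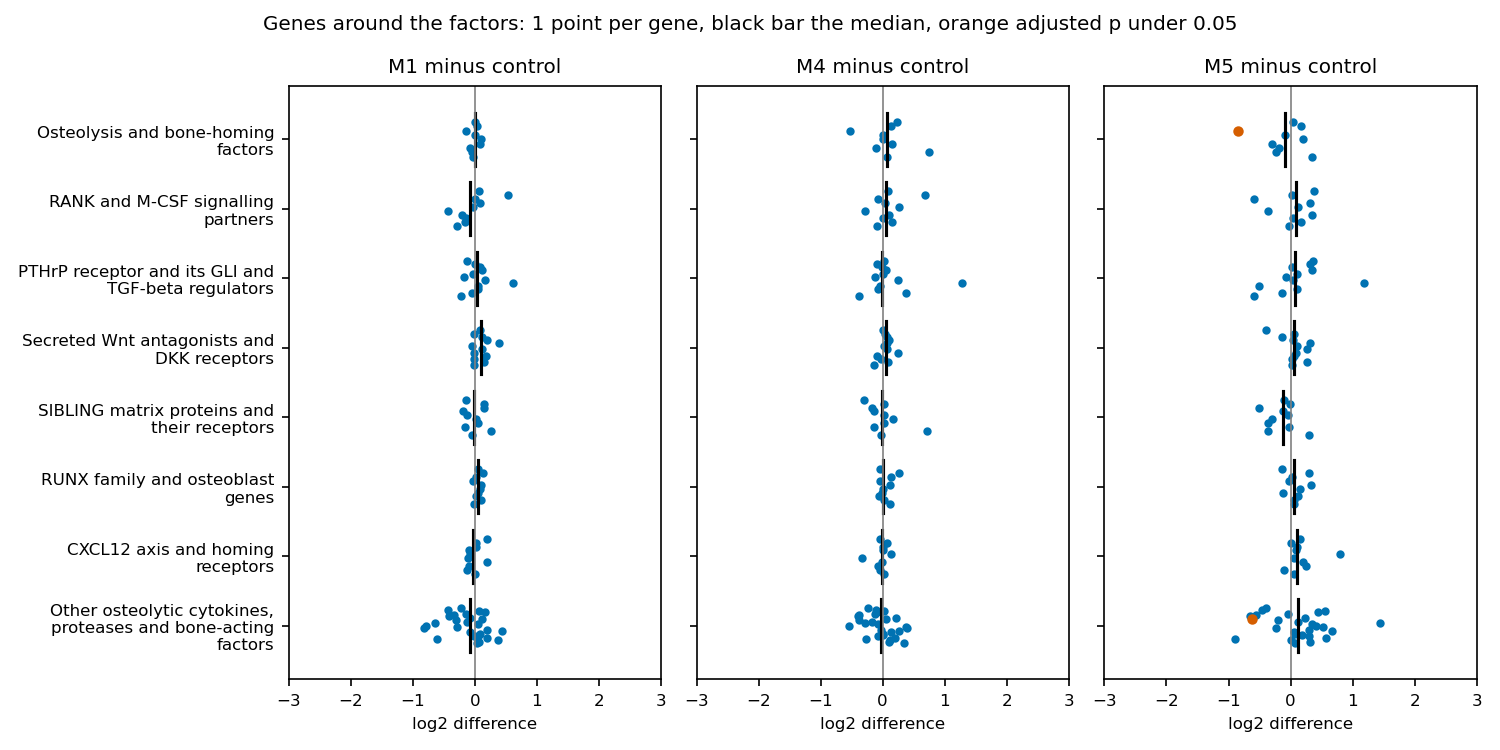
Log2 difference of M1, M4 and M5 from control for each measured gene of the 7 partner lists and of the 9 members (x axis, limma estimate), 1 point per gene, with the median of each list as a bar. List medians stay near 0; the called genes in M5, in orange, are DKK1 and CXCL8.

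Markers of other cell types were read beside these values. Host cells carried over from bone would be mouse cells, and the probe sets are annotated to human genes. The marker values therefore cannot show whether such host cells were present. Keratins 7, 8, 18 and 19 were above the median on all arrays, whereas EPCAM and CDH1, which also define epithelial cells, were below the lower quartile on all 13. Of 5 haematopoietic, 4 osteoclast and 5 osteoblast markers measured, none was called in any comparison in either fit. The haematopoietic marker LCP1, the osteoblast marker COL1A1 and the stromal marker COL3A1 were above the median on all arrays, controls included. Among 5 stromal markers COL3A1 was called, 1.72 lower in M5 than in M1 (limma adjusted p = 0.0343) and, with the block, 1.43 higher in M1 than in control (adjusted p = 0.00387). The summed log2 signals of the stromal markers were 28.1 in M5, 28.5 in M4 and 29.4 in M1, against 27.9 in control. COL3A1 differed by 1.19 in M1 minus control, and the other stromal markers by -0.01 to 0.14. The sums of the osteoclast markers were 19.4 in M5, 18.9 in M4 and 18.6 in M1, against 18.5 in control. MMP9 differed by 0.57 in M5 minus control, and the other osteoclast markers by 0.03 to 0.24. The epithelial markers summed to 46.7 in M5, 47.4 in M4 and 47.0 in M1, against 48.1 in control. In the same order, the osteoblast sums were 25.2, 25.0 and 25.2, against 24.9 in control. The haematopoietic sums were 24.7, 24.3 and 24.4, against 24.2 in control. The part of other cell types in the results above was not tested.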

How the data were processed

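Per the submitters' processing notes, the authors used RMA to turn the scans of 13 arrays into one deposited log2 signal for each of 22277 probe sets; its version is not given in the sources used here. Tests left out the 62 probe sets that are Affymetrix controls, and no filter on low signal was set. Depth has no equivalent here; the number of arrays limits precision.

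The test was that of limma 3.58.1 (lmFit and eBayes, R 4.3.3) on 5 group means over all 13 arrays, per probe set, two-sided, with Benjamini-Hochberg adjustment over 22215 probe sets and a threshold of 0.05. Control weighted its 2 kinds equally, and the mean of the lines weighted the lines equally. Errors of differences are limma standard errors, and those of signals are SDs. A gene in a list was represented by its probe set with the highest mean, and its p adjusted over all 22215 probe sets was used. Array clusters came from Ward clustering of the control probe sets. The code was tested on simulated data.

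The members and lists were chosen with earlier results of these data known. All members were named, and of the lists only called genes (up to 4 per comparison), plus CXCL12. Promoters came from a RefSeq table (GRCh38.p14), which held 8 of the 10 genes. Alternatives were a block by cluster or by replicate number, fewer arrays, a variance trend, other filters, thresholds and normalization, and leaving out each array; leaving out M5 replicates 2 and 3 and quantile normalization were added after seeing the data.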

Additional observations from a re-analysis of the deposited data

Results flagged for a closer look

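TNFRSF11B (204933_s_at) differed between lines by a direct test, at -0.98 for M5 minus M4, as described above. In groups of 4 to 10 arrays, 1 array stood far from its neighbours in 5 of 36 groups tested, and chance alone marks about 1 in 20. M1 replicate 2 had a DKK1 signal of 9.62 among the 9 metastatic arrays, where the next highest was 8.89. For RUNX2 (216994_s_at), luciferase control replicate 1 had 4.11 among the 4 controls, where the next was 3.83, and M5 replicate 3 had 4.38 among the metastatic arrays, where the next was 4.04. M5 replicate 2 had 4.32 for CXCR4 (209201_x_at), where the next was 3.97, and 4.62 for CSF1 (207082_at), where the next was 4.27. All 4 of the dim signals that stood apart were the highest of their group.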

How the results depend on the processing

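Of 751 recomputed differences, 22 that were not called moved by more than the spread between replicates. A reversal was counted only for a difference called in the main or the alternative fit, and none was found. Small differences did change sign. IBSP in M1 minus control kept its sign in 17 of 24 settings, and RUNX2 in M4 minus control in 16 of 24. The count of called probe sets in M5 minus control was 1, and it was 0 with a block by array cluster, fixed or random (intra-cluster correlation 0.499), with a replicate block, at an adjusted p under 0.01, with only the arrays compared, with either kind of control alone, without M5 replicates 2 and 3, and after quantile normalization. Leaving out single arrays gave 0 to 6, the 6 without M5 replicate 1, where 22.3% of all probe sets were called. DKK1 in M5 was negative in 25 of 25 settings, from -1.03 to -0.54, and called in 8 of them (adjusted p 0.00676 to 0.411). The call was lost without any 1 of the 4 control arrays (0.0874 to 0.137), any M4 array (0.053 to 0.0702) or M5 replicate 2 or 3 (0.167 and 0.184). The replicate block gave -0.78 (adjusted p = 0.125). The signals of any 2 arrays correlated at 0.975 to 0.998 across probe sets. The correlations that follow are of deviations from the group mean. By these, same-numbered arrays correlated above 0.1 in 7 of 23 pairs, so the numbers did not pair the arrays across all groups. Same-numbered control arrays correlated at 0.54. With 2 arrays per kind of control the deviations mirror each other, so both control pairs give this 1 value. M4 replicate 1 correlated at 0.41 with M1 replicate 1 and 0.47 with M5 replicate 1. Control arrays and same-numbered line arrays correlated at -0.52 to -0.07.

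The count in M5 minus M4 was 1. It was 0 with the cluster block, fixed or random, and at an adjusted p under 0.01. It was also 0 with only the arrays compared and without M5 replicates 2 and 3. Leaving out dim probe sets gave 0 too, but that setting removed the called TNFRSF11B probe set itself. The count was 2 with an intensity trend and robust prior, and 0 to 5 without single arrays, the 5 without M5 replicate 1 (background 16.4%). TNFRSF11B there was negative in 22 of 22 settings, from -1.21 to -0.72, and called in 9 (adjusted p 0.0199 to 0.215). It was lost without any control array, and also without M1 replicate 2, either of the M4 replicates 2 and 3, or either of the M5 replicates 2 and 3. M5 minus M1 had 0 calls and 0 to 7 without single arrays, the 7 without M5 replicate 1 (background 16.9%). The mean of the lines had 0 and 0 to 1, the 1 without M1 replicate 2. The causes were not tested. SPP1 in M5 minus control was -0.45 and called without M5 replicate 1 (adjusted p = 0.00837).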
